A study of Mus musculus with 6 samples.

Results

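The genes described here are 56 chromatin regulators: 17 SWI/SNF (BAF and PBAF) subunits, 3 ATPases of the ISWI and INO80 remodelers, 9 CHD remodelers, 9 histone deacetylases, 8 histone acetyltransferases, and 10 writers, erasers and readers of DNA methylation. They were taken by gene symbol from a table of 20040 entries, and all 56 were found and tested. The question was whether loss of Kdm6b, the demethylase that removes methyl groups from lysine 27 of histone H3, came with altered mRNA of the other machinery that opens, closes or marks chromatin.

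Chromatin remodelers use ATP to slide, eject or exchange nucleosomes. SWI/SNF complexes open chromatin, and when neural progenitors become neurons they swap subunits: the actin-related Actl6a gives way to Actl6b, and the progenitor PHD-finger subunits give way to Dpf1 and Dpf3. Acetyltransferases add acetyl groups to histone tails and deacetylases remove them, and the class IIa deacetylases Hdac4, Hdac5, Hdac7 and Hdac9 move between nucleus and cytoplasm with neuronal activity. In postnatal neurons Dnmt3a methylates DNA de novo, the TET enzymes oxidise methylated cytosine, and proteins with a methyl-CpG binding domain, such as Mbd1, read the mark.

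The data were mRNA-seq of primary neurons grown from the cortex of embryonic day 18 C57BL/6 mice, with 3 wild-type (WT) and 3 KDM6B knockout (KO) libraries. The cells were papain-dissociated cortical cells, plated with horse serum and then kept in supplemented Neurobasal A medium, without a sorting step in the labels. The deleted part of Kdm6b, how the knockout was made, the days in culture and the number of embryos per library are not stated in the labels. Values are TPM (transcript abundance corrected for length and library size), so levels of different genes can be compared.

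Kdm6b read 30.9, 30.3 and 30.7 TPM in the WT libraries against 11.2, 11.1 and 12.0 TPM in the KO libraries, 37.3% of WT. Transcripts of the sex chromosomes separated the groups too: the Y-chromosome gene Ddx3y was at 26.2, 25.9 and 26.3 TPM in WT and between 0.0652 and 0.191 TPM in KO, and the X-inactivation RNA Xist was at 312.7% of WT in KO. In all results below, a difference in the sex mix of the embryos and the genotype cannot be told apart. Each library held 19762080 to 23504179 recovered counts, which can be lower than the true totals. Summed neuron markers (9 genes) were at 6527.5 to 6565.4 TPM in WT and 6845.6 to 6931.7 TPM in KO, but single markers differed in direction. Tubb3, Nefm and Dcx rose (111.9%, 112.6% and 113.6% of WT), Rbfox3 fell (87.0%), and the others did not pass. The 7 astrocyte markers moved in different directions: Aldoc rose (139.2% of WT) and Aldh1l1 fell (86.6%), while Gfap, Aqp4 and S100b had all KO libraries below all WT libraries without passing (75.6%, 88.2% and 85.5%). Their sum was 1367.3 to 1410.9 TPM in WT and 1555.2 to 1656.3 TPM in KO, and without Aldoc, a sum made after the values were seen, 690.68 to 701.3 and 607.11 to 674.86 TPM. Meningeal fibroblast markers (5 genes) were at 35.186 to 36.315 TPM in WT and 45.13 to 57.594 TPM in KO, and the 8 microglia markers summed to at most 4.1697 TPM, with Cx3cr1, P2ry12 and C1qb under 0.5 TPM in all 6 libraries. In such bulk samples fewer cells of a type and less RNA per cell cannot be told apart.

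Of the 56 genes, 3 fell in KO and 0 rose at an adjusted p under 0.05 (limma, Benjamini-Hochberg over all 14983 genes tested). That is 5.36% of them, against 10.9% of all genes tested, of which 622 rose (4.15%) and 1010 fell (6.74%). When the libraries were centred on their medians, 867 genes rose and 767 fell. The 3 genes were the class IIa deacetylase Hdac9, the de novo DNA methyltransferase Dnmt3a and the methyl-CpG binding protein Mbd1, and each lost between 8.7% and 12.92% of its WT level. An unadjusted p under 0.05 was found for 9 of the 56 (16.1%), against 26.5% of all genes tested. The labels do not say that the libraries came from separate cultures, so the p-values reflect variation among these 6 libraries that may be technical only.

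Sequences just upstream of the RefSeq starts of Dnmt3a and Hdac9 are shown. These 2 of the 3 genes that fell, both on chromosome 12, differ in the CpGs before their most upstream RefSeq starts. The windows are 250 bases long, from RefSeq on GRCm38.p6, written 5′ to 3′ on the gene's strand, with each CpG dinucleotide, the substrate of DNA methyltransferases, in capitals. Dnmt3a has 3 such windows. The one printed, before its most upstream RefSeq start (chr12:3806730-3806979, plus strand), holds 38 CpGs, and 1.88% of all 32851 windows hold as many or more. It overlaps no annotated exon but lies within the Dnmt3a gene as annotated by GENCODE, whose locus begins at chr12:3806007. The other Dnmt3a windows overlap exons of the gene and are not printed: one nearby holds 40 CpGs, and the one before an internal start (chr12:3891494-3891743) holds 15, with fewer in 72.7% of all windows. The window before the most upstream start of Hdac9 (chr12:34917096-34917345, minus strand) holds 0, as do 7.87% of all windows, and the window before an internal start of Hdac9 (chr12:34528890-34529139, minus strand) holds 2.
Dnmt3a: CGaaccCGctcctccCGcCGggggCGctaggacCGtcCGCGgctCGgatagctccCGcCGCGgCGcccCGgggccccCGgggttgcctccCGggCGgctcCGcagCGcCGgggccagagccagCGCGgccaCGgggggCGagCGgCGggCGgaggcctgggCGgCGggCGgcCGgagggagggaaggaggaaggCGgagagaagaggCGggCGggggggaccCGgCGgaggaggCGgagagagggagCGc
Hdac9 upstream start: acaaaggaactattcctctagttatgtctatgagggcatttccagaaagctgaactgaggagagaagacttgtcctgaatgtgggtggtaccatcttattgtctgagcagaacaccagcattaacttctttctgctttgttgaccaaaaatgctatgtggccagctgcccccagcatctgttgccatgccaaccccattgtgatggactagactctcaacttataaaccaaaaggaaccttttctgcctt
Hdac9 internal start: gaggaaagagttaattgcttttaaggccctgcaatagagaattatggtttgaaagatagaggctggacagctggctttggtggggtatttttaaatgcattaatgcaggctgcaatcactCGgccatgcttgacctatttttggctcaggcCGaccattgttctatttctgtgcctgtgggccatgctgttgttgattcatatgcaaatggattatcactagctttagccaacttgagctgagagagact
Neither Hdac9 window overlaps an annotated exon, and the internal one lies within the Hdac9 gene itself. Of the 56 genes, 45 had a RefSeq window, and at the most upstream start their median was 19 CpGs, against 6 over 27025 genes. These 27025 genes were taken whatever their expression, and no comparison with expressed genes alone was made. The GC-box letters GGGCGG, on either strand, stood in 34 of these 45 windows (75.6%) and in 33.0% of those of all genes. The cyclic-AMP response element letters TGACGTCA, which read the same on both strands, stood in 0 of the 45 and in 1.6% of all. These matches describe the windows and say nothing about binding.

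Most of the 56 genes were abundant and held narrow margins around their WT level. Mean levels ran from 0.782 TPM for Dnmt3b, the embryonic de novo methyltransferase, to 383.4 TPM for Chd3, an ATPase of the NuRD complex, with a median of 47.51 TPM. The group means were within 10% of each other for 51 of the 56 genes (91.1%), against 66.7% of all genes tested. All genes tested had a lower median level, 23.11 TPM, and no share over genes of like level was computed for this measure. The 95% interval of the change lay inside 1.25-fold in either direction for 53 of the 56 (94.6%), the exceptions being Dpf3, Hdac7 and Dnmt3b. The same held for 86.4% of tested genes whose mean reached 10 TPM and for 63.7% of all genes tested. The median log2 fold change was -0.03, against -0.02 over all genes tested, and the values ran from -0.21 for Hdac7 to 0.24 for Dpf3.

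**Figure D1:**
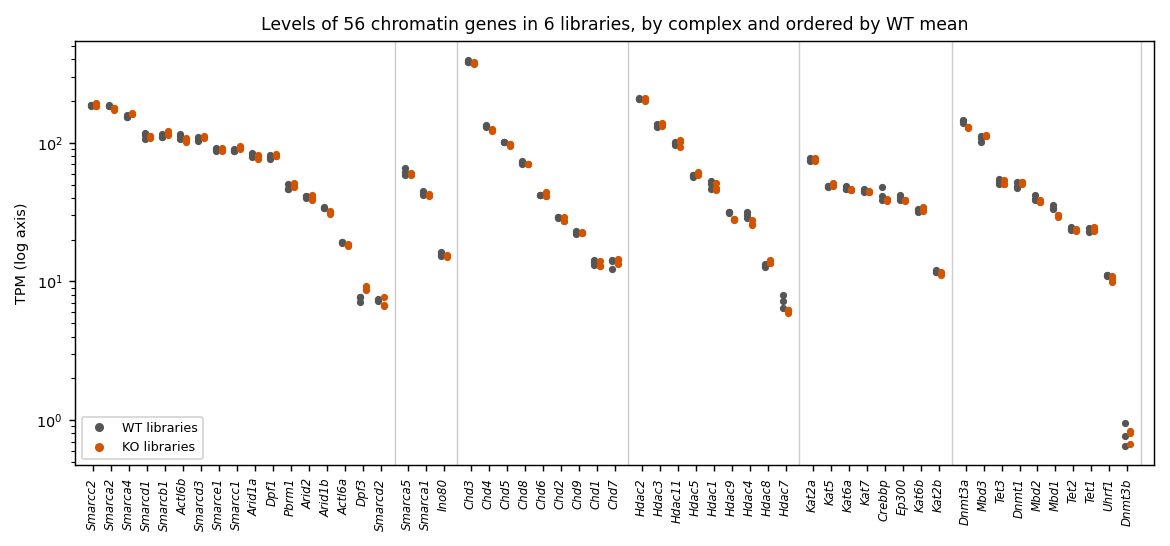
TPM of the 56 genes in each of the 3 WT (grey) and 3 KO (orange) libraries on a log axis, in 6 blocks (SWI/SNF, ISWI and INO80, CHD, deacetylases, acetyltransferases, DNA methylation) and ordered by WT mean within a block. Chd3 is the most abundant of them at a mean of 383.4 TPM and Dnmt3b the least at 0.782 TPM, and for most genes the grey and orange points lie on top of each other at this scale.

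The 3 WT and 3 KO values did not overlap for 15 of the 56 genes (26.8%), against 31.7% of all genes tested. KO was the lower group for 12 of them (21.4%, against 19.2%) and the higher for 3 (5.36%, against 12.5%), namely the SWI/SNF ATPase Smarca4, Dpf3 and the X-linked class I deacetylase Hdac8. Besides the 3 that fell, the lower ones were Smarca2, Arid1b, Actl6a, Chd4, Chd5, Hdac4, Hdac7, Kat2b and Uhrf1.

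**Figure D2:**
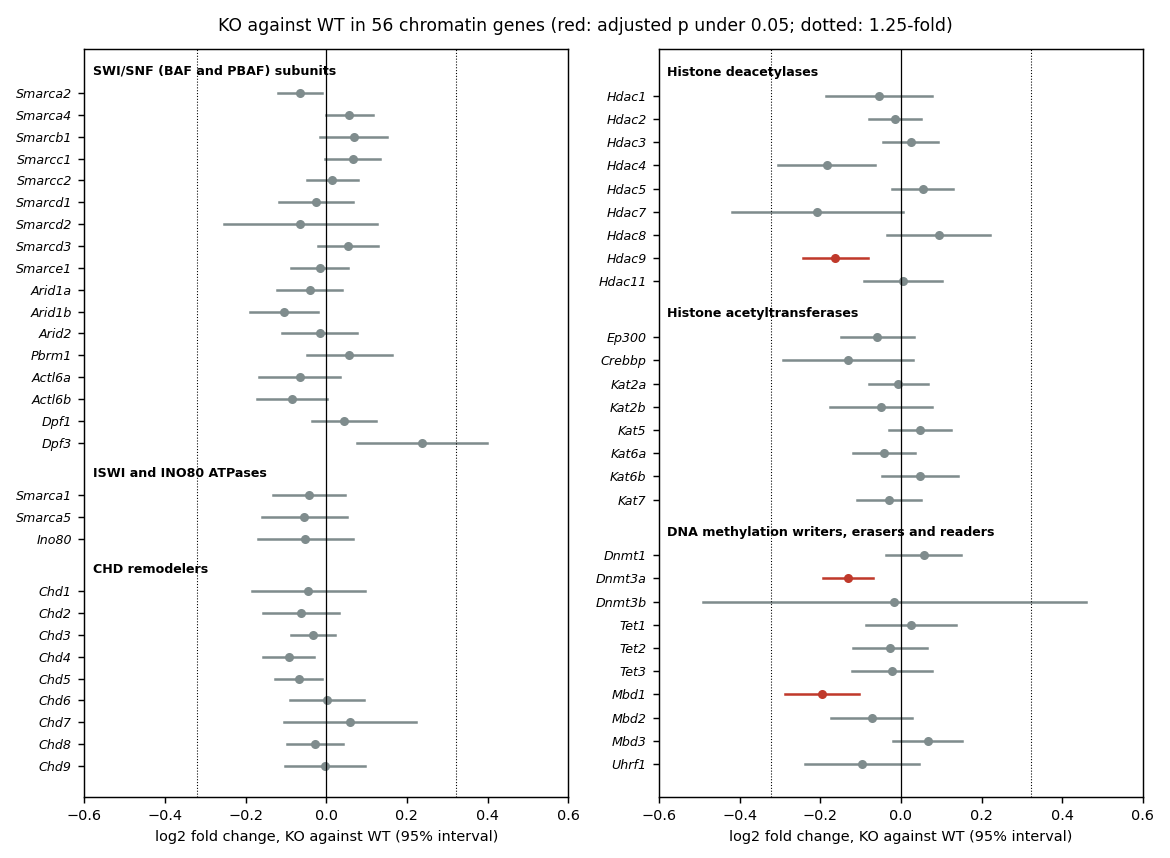
Log2 fold change of KO against WT with its 95% interval for each of the 56 genes, grouped by complex. Red marks the 3 genes with an adjusted p under 0.05 (Hdac9, Dnmt3a and Mbd1), and the dotted lines at 1.25-fold are crossed by the intervals of Dpf3, Hdac7 and Dnmt3b.

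Among the 17 SWI/SNF subunits 0 passed the limma test in either direction, where 10.9% of all genes tested did. An unadjusted p under 0.05 was found for 3 of the 17 (Smarca2, Arid1b and Dpf3), where 26.5% of all genes tested had one. The median log2 fold change was -0.02. The catalytic ATPases were abundant in both groups. Smarca2 (BRM) stood at 184.3, 186.6 and 185.0 TPM in WT against 173.3, 179.6 and 178.7 TPM in KO. Smarca4 (BRG1), the alternative ATPase, stood at 160.1, 154.0 and 154.1 TPM in WT and at 161.4, 162.1 and 163.5 TPM in KO. Both genes separated the groups, Smarca2 with KO below (95.6% of WT) and Smarca4 with KO above (104.0% of WT), but their adjusted p-values were 0.13 and 0.197. The summed level of both was 341.4 ± 2.8 TPM (SD, n = 3) in WT and 339.5 ± 4.13 TPM in KO.

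Of the neuronal subunits, Actl6b and Dpf1 were well expressed, whereas Dpf3 had a mean of 7.52 TPM in WT. Actl6b, the neuronal actin-related subunit, stood at 113.0, 115.8 and 107.4 TPM in WT against 101.8, 106.4 and 108.6 TPM in KO, and Actl6a, its progenitor counterpart, stood at 19.2, 19.0 and 19.2 TPM in WT and at 18.2, 18.6 and 17.9 TPM in KO. Actl6b overlapped between the groups and Actl6a did not, but neither passed (adjusted p = 0.199 and 0.394). Actl6b made up 85.4 ± 0.533% (SD, n = 3) of the summed TPM of the pair in WT and 85.3 ± 0.524% in KO, so the balance between the 2 subunits differed by less than its spread. Of 9 markers of neural progenitors and radial glia, Nes and Vim fell (71.2% and 72.2% of WT, adjusted p = 0.00312 and 0.0011) and Fabp7 and Slc1a3 rose (109.3% and 111.9%), with sums of 3646.6 to 3893.2 TPM in WT and 3907.4 to 4070.4 TPM in KO, and their part in the subunit values was not tested. Dpf1, a neuronal PHD-finger subunit, had means of 79.0 ± 2.63 and 81.4 ± 1.84 TPM. Dpf3, the other one and on chromosome 12 like Dnmt3a and Hdac9, stood at 7.77, 7.14 and 7.67 TPM in WT against 8.72, 8.88 and 9.26 TPM in KO. Its groups did not overlap, and its change was the largest increase of the 56 genes at 1.19-fold (log2 fold change 0.24 ± 0.07 SE, 95% interval 0.08 to 0.40, adjusted p = 0.0683). Dpf3 had 186 to 265 counts per library, and it passed under median centring (adjusted p = 0.0499), quantile normalization (0.0343), a fit without a variance trend (0.042) and limma-voom on recovered counts (0.0286). Over all genes tested these settings called 10.9%, 10.7%, 7.1% and 17.5%. Of the 9 neuron markers, whose sum was higher in KO, 3 rose and 1, Rbfox3, fell (87.0% of WT). The part of these markers in the Dpf3 values was not tested.

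Of the DNA-binding ARID subunits, Arid1a had means of 81.6 ± 2.38 TPM in WT and 79.3 ± 2.42 TPM in KO. Arid1b, its alternative in BAF complexes, stood at 34.7, 33.9 and 33.6 TPM in WT and at 30.9, 32.3 and 31.8 TPM in KO, which is 92.9% of WT with an adjusted p of 0.113. The PBAF subunits Arid2 and Pbrm1 were at 98.9% and 104.0% of WT with overlapping libraries. The core scaffold subunits Smarcb1, Smarcc1, Smarcc2 and Smarce1 were between 98.9% and 104.8% of WT, also with overlap. Among the 3 Smarcd paralogs, Smarcd1 and Smarcd3 stood above 100 TPM in both groups and Smarcd2 at 7.36 ± 0.109 and 7.03 ± 0.623 TPM, and all 3 overlapped. Exons of Chpf2 on the opposite strand cover 48.2% of the Smarcd3 exons, and those of Mrpl47 cover 11.6% of Actl6a, so that without a known strand setting reads of these neighbours cannot be told apart.

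The ISWI ATPases slide and space nucleosomes, and Ino80 is the ATPase of the complex that acts on nucleosomes with the variant H2A.Z. Smarca5 (SNF2H) had means of 62.0 ± 3.79 TPM in WT and 59.6 ± 1.07 TPM in KO, the X-linked Smarca1 (SNF2L) 43.5 ± 1.53 and 42.2 ± 0.885 TPM, and Ino80 15.8 ± 0.582 and 15.2 ± 0.212 TPM. All 3 were between 96.2% and 97.0% of WT with overlapping libraries. Of the 3, 0 had an unadjusted p under 0.05 in limma, where 26.5% of all genes tested had one.

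Of the 9 CHD remodelers 0 passed in limma, where 10.9% of all genes tested did. An unadjusted p under 0.05 was found for 2 of the 9 (Chd4 and Chd5), where 26.5% of all genes tested had one. The median log2 fold change was -0.03. Chd3, Chd4 and Chd5 are the alternative motor subunits of NuRD, the complex that joins nucleosome remodeling with histone deacetylation. Chd4 stood at 135.5, 129.3 and 131.6 TPM in WT against 124.1, 125.2 and 122.0 TPM in KO. Chd5, a paralog known for its neuronal expression, stood at 101.4, 101.6 and 101.6 TPM in WT and at 94.9, 97.8 and 97.7 TPM in KO. The libraries of both genes did not overlap, with Chd4 at 93.7% of WT (log2 fold change -0.09, 95% interval -0.16 to -0.03, adjusted p = 0.0659) and Chd5 at 95.3% (adjusted p = 0.128). Chd4 passed with limma-voom on recovered counts (adjusted p = 0.039).

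Chd3 stood at 396.1, 383.3 and 384.1 TPM in WT against 378.3, 373.1 and 385.4 TPM in KO, with overlap. On GRCm38 its locus (chr11:69343273-69369406) lies 29.1 kb from Kdm6b (chr11:69398508-69413675), and it is the nearest to Kdm6b of the 6 genes of this set on chromosome 11. Its 95% interval ran from -5.94% to 1.51%. Chd3 made up 62.4 ± 0.179% of the summed TPM of the NuRD motors in WT and 63.2 ± 0.569% in KO. The disease-linked Chd7 and Chd8, whose human counterparts are mutated in CHARGE syndrome and autism, were at 104.1% and 98.0% of WT, and Chd1, Chd2, Chd6 and Chd9 between 95.7% and 100.2%, all with overlap.

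Among the 9 histone deacetylases, 1 fell and 0 rose, where 6.74% of all genes tested fell and 4.15% rose. Hdac9, a class IIa enzyme, stood at 31.5, 31.5 and 31.4 TPM in WT and at 28.3, 28.2 and 27.7 TPM in KO. Each WT library was above each KO library, and the change was larger than the spread within a group: 31.5 ± 0.0773 TPM (SD, n = 3) against 28.0 ± 0.30 TPM, or 89.1% of WT (log2 fold change -0.16 ± 0.03 SE, 95% interval -0.24 to -0.08, adjusted p = 0.0233, limma). The locus spans chr12:34047580-34917095 on the minus strand of GRCm38, and the value rests on 1990 to 2559 counts per library. Gene-level TPM do not separate full-length Hdac9 from its truncated isoform that lacks the deacetylase domain. Hdac9 missed the threshold when any 1 of the 6 libraries was left out (adjusted p = 0.056 to 0.0774), with the fold change between -0.17 and -0.15.

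Hdac4 and Hdac7, of the same class, also had all KO libraries below all WT libraries without passing. Such a separation was found for 19.2% of all genes tested, so it is not a result about the class. Hdac4 stood at 28.6, 30.4 and 31.8 TPM in WT against 27.8, 26.2 and 25.7 TPM in KO, which is 87.8% of WT (adjusted p = 0.0621, and 0.0156 with limma-voom on recovered counts). Hdac7 stood at 6.45, 7.18 and 7.95 TPM in WT and at 5.93, 6.25 and 6.25 TPM in KO, which is 85.4% of WT with a 95% interval from -25.3% to 0.374% (adjusted p = 0.199). Exons of the non-coding Gm26720 on the opposite strand cover 22.4% of the Hdac4 exons. Endothelial and pericyte markers (7 genes) showed no common direction: Kdr fell (60.9% of WT), whereas Pdgfrb and Rgs5 were at 112.8% and 138.3% of WT with overlap. Pecam1 was at 93.5% and Cdh5 at 267.2% of WT, both with overlap, and Cdh5 had means of only 0.328 TPM in WT and 0.877 TPM in KO. Cldn5 and Flt1 were under 0.5 TPM. They summed to 18.218 to 19.703 TPM in WT and 16.585 to 17.673 TPM in KO, and without Kdr, again a sum made after the values were seen, to 8.9943 to 10.046 and 10.345 to 12.567 TPM. Their part in the Hdac7 values was not tested. Hdac5, the most abundant class IIa enzyme, stood at 59.1, 58.3 and 56.6 TPM in WT against 58.7, 61.4 and 60.7 TPM in KO, with overlap. The class IIa enzymes together gave 125.6 to 127.8 TPM in WT and 120.3 to 122.0 TPM in KO, and Hdac5 made up 45.7 ± 1.37% of that sum in WT and 49.8 ± 0.998% in KO.

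The class I enzymes are Hdac1 and Hdac2, the catalytic subunits of the Sin3, NuRD and CoREST co-repressors, Hdac3, that of NCoR, and Hdac8, which acts outside these complexes. Together they gave 403.9 to 405.4 TPM in WT and 393.2 to 415.7 TPM in KO. Hdac2, the most abundant deacetylase, had means of 208.4 ± 2.22 and 206.4 ± 6.38 TPM, Hdac3 of 133.4 ± 2.96 and 135.6 ± 3.53 TPM, and Hdac1 of 49.97 ± 3.23 and 48.1 ± 2.59 TPM. All 3 overlapped between the groups. Hdac8 stood at 13.4, 12.7 and 12.8 TPM in WT and at 13.7, 13.6 and 14.4 TPM in KO without overlap (1.07-fold, adjusted p = 0.337). Hdac11, the class IV enzyme, was at 100.4% of WT.

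Of the 8 histone acetyltransferases 0 passed in limma or limma-voom, where 10.9% and 17.5% of all genes tested did. An unadjusted p under 0.05 in limma was found for 0 of the 8, where 26.5% of all genes tested had one. The median log2 fold change was -0.04. The co-activators Crebbp (CBP) and Ep300 (p300) acetylate enhancer nucleosomes at lysine 27 of histone H3, the residue that Kdm6b demethylates. Ep300 had means of 40.3 ± 1.64 TPM in WT and 38.6 ± 0.338 TPM in KO. Crebbp stood at 41.4, 38.9 and 47.8 TPM in WT against 38.9, 38.02 and 39.6 TPM in KO, with the highest value in WT replicate 3 and overlap of the groups (90.9% of WT, adjusted p = 0.286). The SAGA subunits Kat2a (GCN5) and Kat2b (PCAF) were at 99.5% and 96.4% of WT, and Kat2b separated the groups with KO below by less than 1 TPM: 11.6, 12.0 and 11.7 against 11.3, 11.6 and 11.1 TPM. The MYST-family enzymes Kat5 (TIP60), Kat6a, Kat6b and Kat7 were between 97.1% and 103.4% of WT, all with overlap, and exons of Rnaseh2c on the opposite strand cover 12.1% of Kat5.

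Of the 10 genes of DNA methylation, 2 fell and 0 rose, where 6.74% of all genes tested fell and 4.15% rose. Among the 13 tested partners of this group 0 passed in limma, and so short a list gives no result about the group. Dnmt3a stood at 145.3, 138.9 and 142.9 TPM in WT and at 131.0, 130.9 and 128.0 TPM in KO. The groups did not overlap, and the means were 142.4 ± 3.25 TPM (SD, n = 3) and 129.98 ± 1.71 TPM, or 91.3% of WT (log2 fold change -0.13 ± 0.03 SE, 95% interval -0.19 to -0.07, adjusted p = 0.02, limma). The locus is chr12:3806007-3914443 on the plus strand of GRCm38, and the value rests on 8418 to 10662 counts per library. Dnmt3a has a long isoform and a short one from an internal start, which gene-level TPM do not separate. Leaving out WT replicate 1 (adjusted p = 0.0765), replicate 3 of WT (0.0542), KO replicate 2 (0.0582) or replicate 3 of KO (0.0707) ended the call of Dnmt3a, as did the fit without a variance trend (0.0768).

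Mbd1 stood at 34.1, 33.5 and 35.6 TPM in WT against 29.3, 30.1 and 30.4 TPM in KO. All KO libraries were below all WT libraries, with means of 34.4 ± 1.11 TPM and 29.9 ± 0.589 TPM (SD, n = 3), or 87.1% of WT (log2 fold change -0.20 ± 0.04 SE, 95% interval -0.29 to -0.10, adjusted p = 0.0194, limma). The gene lies at chr18:74267605-74282732 on the plus strand of GRCm38 and had 537 to 714 counts per library. Mbd1 missed it when WT replicate 1 (adjusted p = 0.0622), replicate 3 of WT (0.0552), KO replicate 1 (0.063) or replicate 2 of KO (0.0595) was left out. The other readers differed in direction and overlapped: Mbd2 had means of 39.97 ± 1.92 TPM in WT and 37.97 ± 0.83 TPM in KO, and Mbd3, the NuRD subunit, of 107.8 ± 5.29 and 112.8 ± 0.356 TPM.

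**Figure D3:**
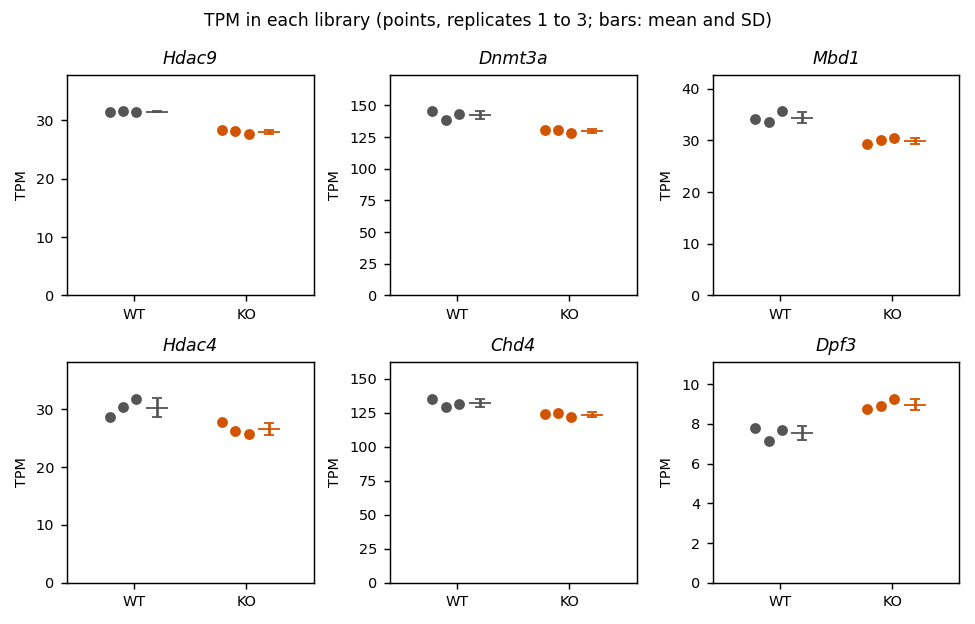
TPM in each library (points, replicates 1 to 3 from left to right) with mean and SD (bars) for the 3 genes that fell, Hdac9, Dnmt3a and Mbd1, and for Hdac4, Chd4 and Dpf3, whose groups did not overlap but which did not pass. All axes start at 0, and the KO points lie below the WT points in every panel but that of Dpf3.

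The maintenance machinery did not pass. Dnmt1, which copies methylation after replication, stood at 51.9, 49.1 and 47.5 TPM in WT and at 51.9, 50.3 and 52.1 TPM in KO, with overlap. Uhrf1, which guides Dnmt1 to hemimethylated DNA and is high in dividing cells, stood at 11.18, 11.18 and 10.99 TPM in WT against 10.35, 9.87 and 10.9 TPM in KO, just without overlap (93.3% of WT, adjusted p = 0.377). The 15 markers of cycling cells summed to 376.42 to 383.07 TPM in WT and 351.06 to 373.71 TPM in KO, with 0 of them past the threshold in limma and 3 at an unadjusted p under 0.05, and their part in the Uhrf1 values was not tested. Dnmt3b, at 20 to 31 counts per library, had a 95% interval from -28.9% to 37.5%, so a change of that size was not detectable at this depth. As shares of the summed methyltransferase TPM, Dnmt3a went from 73.9 ± 0.685% in WT to 71.3 ± 0.612% in KO and Dnmt1 from 25.7 ± 0.765% to 28.2 ± 0.564%. The TET enzymes Tet1, Tet2 and Tet3 were at 101.8%, 98.1% and 98.4% of WT with overlap, and Tet3 made up 52.5 ± 1.75% of their summed TPM in WT and 52.1 ± 0.368% in KO.

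Ratios of 2 genes within a library do not depend on how that library was scaled, and 18 pairs of alternative subunits or paralogs were compared. The groups did not overlap for 7 of the 18 pairs. Of all single genes tested 31.7% did not overlap, and no share over other gene pairs was computed. The count is therefore not a result about subunit balance. With 3 libraries against 3 the exact two-sided permutation test cannot go below 0.1, so these 7 have p = 0.1 (adjusted p = 0.257 over the 18 pairs) and none can pass. Smarca2 over Smarca4 went from 1.19 ± 0.0321 in WT to 1.09 ± 0.0172 in KO, Dnmt3a over Dnmt1 from 2.88 ± 0.114 to 2.53 ± 0.0723, and Hdac5 over Hdac4 from 1.92 ± 0.143 to 2.27 ± 0.138. Dpf1 over Dpf3 went from 10.5 ± 0.211 to 9.10 ± 0.395, Mbd3 over Mbd2 from 2.70 ± 0.153 to 2.97 ± 0.0551, Chd3 over Chd4 from 2.94 ± 0.0252 to 3.06 ± 0.091, and Arid1b over Arid1a from 0.418 ± 0.00531 to 0.399 ± 0.00848. A ratio shows unequal change of its genes and not which of them moved. The subunit switch pair Actl6b over Actl6a was at 5.86 ± 0.25 in WT and 5.79 ± 0.245 in KO (exact permutation p = 0.7), and Crebbp over Ep300 at 1.06 ± 0.074 and 1.00 ± 0.0255 (exact permutation p = 0.3).

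**Figure D4:**
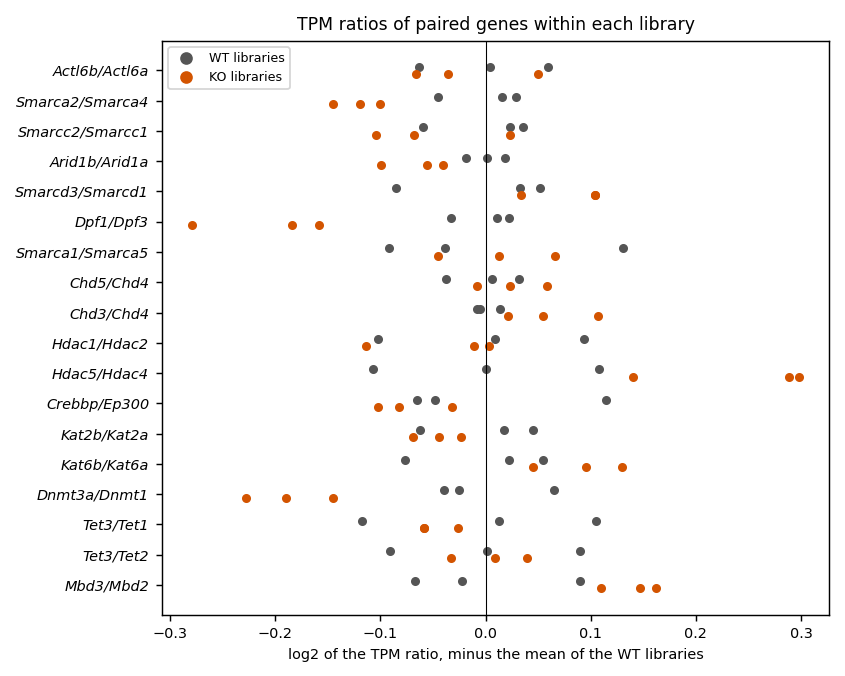
Log2 of the TPM ratio of each of 18 gene pairs in each library, minus the mean of the 3 WT libraries (grey, WT; orange, KO). Grey and orange points are apart for 7 pairs, among them Smarca2/Smarca4, Dpf1/Dpf3, Hdac5/Hdac4 and Dnmt3a/Dnmt1, and overlap for Actl6b/Actl6a.

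Further subunits and partners of the same complexes were read from a list of 111 genes, of which 109 were tested. Of these, 1 rose (0.917%, against 4.15% of all genes tested) and 5 fell (4.59%, against 6.74%) at an adjusted p under 0.05 (limma), and the median log2 fold change was -0.01. The share called, 5.5%, is below the 10.9% of all genes tested, so the 6 genes are given as values and not as a result about the list. Bcl11a, a zinc-finger transcription factor that is also a BAF subunit, stood at 43.8, 42.9 and 44.0 TPM in WT and at 48.5, 49.2 and 49.6 TPM in KO (112.7% of WT, adjusted p = 0.0119), without overlap, and it passed with any 1 library left out. The genes that fell encode partners of NuRD, NURF and acetyltransferase complexes and further deacetylases. Rbbp7, an X-linked histone chaperone of NuRD and Sin3, stood at 227.8, 227.4 and 220.7 TPM in WT against 207.9, 210.3 and 200.4 TPM in KO (91.5% of WT, adjusted p = 0.0231). Bptf, the large subunit that pairs with Smarca1 in the NURF remodeler, stood at 46.9, 44.6 and 45.3 TPM in WT and at 41.8, 41.1 and 40.8 TPM in KO (90.4% of WT, adjusted p = 0.0351). The class IIb deacetylase Hdac10 and the NAD-dependent deacetylase Sirt1 were at 79.5% and 82.2% of WT (adjusted p = 0.0348 and 0.0465), and Jade2, a scaffold subunit of acetyltransferase complexes with Kat7, at 74.6% (adjusted p = 0.0352). Rbbp7 missed the threshold when WT replicate 1 (0.0874), replicate 2 of WT (0.0772), KO replicate 1 (0.0544) or replicate 3 of KO (0.0713) was left out, and Hdac10, Bptf, Jade2 and Sirt1 missed it without any 1 of the 6 libraries (adjusted p = 0.0574 to 0.124 over the 4 genes). Median centring ended the calls of Rbbp7 (0.0509), Bptf (0.0662) and Sirt1 (0.0641), and quantile normalization those of Hdac10 (0.0701), Bptf (0.053), Jade2 (0.0712) and Sirt1 (0.0863). Without a variance trend Rbbp7 (0.091), Bptf (0.0667) and Sirt1 (0.0667) did not pass, and without the filter on low values Hdac10 (0.0681), Jade2 (0.0696) and Sirt1 (0.0767) did not.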

How the data were processed

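Gene-level mRNA-seq values of 3 WT and 3 KO libraries were used. The deposited table is named for FPKM but holds TPM, since the values of a library add up to 1000000. The submitters' processing notes list TopHat, featureCounts, edgeR, Picard 1.127, FastQC 0.11.2 and bcl2fastq 2.17 and the build mm10; which annotation, strand setting and scaling were used is not stated there. FPKM had been planned for, and TPM took the same test. Gene lengths are not given with the values. For each entry a length was sought that made the values of all libraries whole multiples of a library's step. Such a solution was found for 100.0% of 19369 entries above 0 (tolerance 0.001 counts, smallest whole-number solution). Where the counts of a gene share a factor, the recovered ones can be lower than the true ones. The recovered counts were used for depth and for limma-voom.

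The 14983 genes whose mean reached 0.5 TPM were compared by limma 3.58.1 in R 4.3.3 on log2(TPM + 0.5), with a variance trend and no covariates, two-sided, with Benjamini-Hochberg adjustment over all of them. Fold changes on this scale understate changes of low genes, and percent of WT is the ratio of mean TPM. No test was made on lists. The 56 genes, the partner and marker lists and the gene pairs were chosen with earlier results of these data known. All 56 could be named, partners where they passed (the 3 with the smallest p per complex), and Kdm6b and sex-linked genes as checks. Of 111 partners, Srcap was not matched, 3 were matched through RefSeq synonyms and Dnmt3l was under the filter. Positions are from GENCODE on GRCm38 (mm10), which held 94.6% of the names. Scripts were tested on simulated data. Alternatives covered pseudocount, filter, scaling, variance model, limma-voom, X and Y genes, each library and a replicate block.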

Additional observations from a re-analysis of the deposited data

How the results depend on the processing

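Over all genes, 622 rose and 1010 fell; without a variance trend 406 rose and 658 fell, and with limma-voom on recovered counts 1184 rose (1431 fell). Leaving out 1 library gave 345 to 440 that rose and 493 to 678 that fell. Of the 56 genes, 1 (Dpf3) rose under median centring, 1 under quantile normalization, 1 without a variance trend and 1 with limma-voom, which also gave 5 that fell (Hdac4 and Chd4 besides the 3). Without 1 library, 0 to 2 of the 56 fell. Same-numbered WT and KO libraries did not deviate together (correlations 0.00775, -0.0511 and 0.011). These correlations cannot show whether the samples were prepared as pairs, which the labels do not say. With replicate number as a block, 360 rose and 585 fell over all genes. In that fit 0 of the 56 fell (limma, adjusted p = 0.0777 for Hdac9, 0.064 for Dnmt3a, 0.0543 for Mbd1). Bcl11a, Hdac10, Bptf, Jade2 and Sirt1 also missed the threshold in it. Of 949 fold changes of the 56 genes under alternatives, 893 kept their direction and side of the threshold, 18 lost a call and 6 gained one. The other 32 changed sign without a call in either fit, and none reversed a call. Only Hdac9, Dnmt3a and Mbd1 had a call to lose. They lost it in 7, 6 and 5 alternatives and kept it in 10, 11 and 12. For 36 genes every alternative gave the same verdict. Of 101 fold changes of the 6 partners that passed, 55 kept the call and 46 lost it. The pairs whose groups did not overlap numbered 7 to 10 with 1 library left out. Leaving out a library cannot make separated groups overlap, so this number could not fall below 7 and is no check of the pairs. The cause of these changes was not tested, apart from the fewer samples when a library is left out. Depth limits Dnmt3b (20 to 31 counts per library), and 3 libraries per group limit the rest.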
